A study of Mus musculus with 18 samples.

Results

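Zscan4 genes encode proteins with a SCAN domain and zinc fingers. They are expressed in the 2-cell mouse embryo at zygotic genome activation, and in ESC cultures a small, changing fraction of cells expresses them in bursts alongside other 2-cell genes. In ESCs the proteins have been linked to telomere lengthening by recombination and to genome stability. Zscan4 genes were identified by symbol as Zscan4 followed by a letter from a to f or by a pseudogene suffix, which found 9 genes among the 53672 listed: Zscan4a to Zscan4f, Zscan4-ps1, Zscan4-ps2 and Zscan4-ps3. The family was put forward with its levels in these 18 libraries known, so it was chosen by its summed and single-gene levels in the 6 groups, and these levels and their fold changes are given as a description with no test.

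RNA was sequenced from E14TG2a mouse ESCs with Hdac1/2 lox/lox alleles, in which 4-hydroxytamoxifen (OHT) removes the endogenous Hdac1 and Hdac2 genes that encode the deacetylases of the SIN3, NuRD, CoREST, MiDAC, MIER and RERE complexes. A Flag-tagged rescue protein was stably expressed in each of 3 lines (HDAC1-WT, HDAC1–Y48E and HDAC1–E63R), which were sequenced untreated and after 1 uM OHT, with the labels giving 5 days for both arms and the study's methods giving OHT for the first day of this period only. The 6 groups of 3 libraries all grew on gelatine with leukemia inhibitory factor, and untreated cells of every line still had endogenous HDAC1/2 beside the rescue protein. By the study's own pulldowns, the Y48E protein keeps its binding to SIN3 and loses it to the other complexes named above. E63R keeps SIN3, MIER and RERE, binds CoREST less, and loses much of its binding to NuRD and MiDAC. Each rescue was represented by 1 line, so a difference between lines cannot be told apart from other differences between these cultures.

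The 9 genes lie in 1 cluster of 820 kb at chr7:10794242-11614112 (mm10, GENCODE M21), 4 on the plus and 5 on the minus strand, and none overlaps another annotated gene. RefSeq calls 4 of them protein coding (Zscan4b, Zscan4c, Zscan4d and Zscan4f) and 5 pseudogenes, whereas GENCODE calls 8 protein coding. The copies are close to each other: over the 36 pairs of longest transcripts, identity over aligned bases ranged from 96.6% to 99.8% with a median of 97.5%. The share of 150-base windows of a gene's transcripts found in no other annotated transcript was 87.4% for Zscan4-ps1, 87.0% for Zscan4d, 74.9% for Zscan4a and 63.6% for Zscan4-ps3. It was 39.0% for Zscan4c, 36.4% for Zscan4-ps2, 31.6% for Zscan4b, 22.6% for Zscan4e and 13.8% for Zscan4f. Reads from the shared windows could be left uncounted or assigned to another copy, so values of the single genes are uncertain, more so for Zscan4e and Zscan4f than for Zscan4d.

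RefSeq promoters were available for the 4 protein-coding members, and 3 are shown because they display the near identity of the family and the position where they differ in a match to the DUX factor's binding motif. Capitals mark TATAAA and TGATTCAA, the core of that motif, and each sequence is the 250 bases before the annotated start (GRCm38).
Zscan4c (chr7:11005495-11005744, plus strand): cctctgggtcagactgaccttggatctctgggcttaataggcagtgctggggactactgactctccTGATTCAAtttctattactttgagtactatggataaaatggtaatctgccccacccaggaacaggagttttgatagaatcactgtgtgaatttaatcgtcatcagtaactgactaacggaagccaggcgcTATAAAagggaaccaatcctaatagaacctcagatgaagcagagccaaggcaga
Zscan4d (chr7:11166149-11166398, minus strand): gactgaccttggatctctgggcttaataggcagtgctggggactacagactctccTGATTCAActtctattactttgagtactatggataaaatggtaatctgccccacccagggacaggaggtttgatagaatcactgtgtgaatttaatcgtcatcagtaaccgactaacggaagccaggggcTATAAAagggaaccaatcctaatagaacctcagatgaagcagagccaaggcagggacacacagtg
Zscan4b (chr7:10905051-10905300, minus strand): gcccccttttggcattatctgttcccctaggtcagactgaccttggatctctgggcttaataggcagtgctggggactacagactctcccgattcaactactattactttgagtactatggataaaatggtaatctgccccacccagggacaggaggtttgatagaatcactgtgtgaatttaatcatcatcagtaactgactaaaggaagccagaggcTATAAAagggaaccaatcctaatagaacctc

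The promoter of Zscan4f differs from that of Zscan4c at 1 of 227 aligned bases. Searched on both strands, TATAAA was in 4 of 4 of these promoters, against 12.37% of the 32851 RefSeq promoters of the same length. TGATTCAA was in those of Zscan4c, Zscan4d and Zscan4f, against 0.54% of all promoters. Zscan4b had no match, and the aligned stretch carried the substitution T1C, counted from 1 at the first base of TGATTCAA. The letters TGCACAC, reported as a motif bound by the Zscan4c protein, were in 0 of 4 of these windows and in 3.67% of all promoters. These motifs were chosen with the promoters in view, and a match is a description.

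Between 9019615 and 11454638 counts fell on genes per library, and 3 counts, the upper limit that a count of 0 allows, corresponded to 0.262 to 0.333 CPM, that is counts divided by the library's gene total and multiplied by 1e+06. Levels below are CPM on library sizes scaled by TMM (a trimmed mean of gene ratios), called normalised CPM, and floors cover counting error only. The targeted genes gave no clear check of the deletion, since counts cover whole genes. The coding sequence of the HDAC1 rescue may also be counted under Hdac1, but not under Hdac2. Hdac1 was 201 to 210 normalised CPM in untreated HDAC1-WT cells, 169 to 179 after OHT, and between 94.9 and 131 in the 12 mutant libraries. Hdac2 was 169 to 208 in untreated HDAC1-WT cells and 112 to 133 after OHT. It was 152 to 210 and then 150 to 158 in E63R, and 149 to 154 and then 139 to 152 in Y48E libraries. Why Hdac2 differed less with OHT in the mutant lines was not tested. Untreated E63R replicate 3 stood apart from the other libraries of its group, with chi-square per degree of freedom of 60.4 and 67.1 against them, where other pairs of replicates gave 3.38 to 7.42. Counts and summed levels for untreated E63R cells are therefore also given without it.

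Summed over the 9 genes, Zscan4 RNA was scarce in HDAC1-WT cells and abundant in both mutant lines, even before OHT. The untreated HDAC1-WT libraries had 71, 53 and 64 counts, or 6.60, 4.80 and 6.4 normalised CPM (5.94 ± 0.986, SD, n = 3). Untreated E63R libraries had 81.9, 86.0 and 111 normalised CPM (92.9 ± 15.7, SD, n = 3), and untreated Y48E libraries had 237, 202 and 210 (216 ± 18.5, SD, n = 3). The groups did not overlap, with every E63R library above every HDAC1-WT library and every Y48E library above every E63R library. On the log2 scale of the summed level the difference from untreated HDAC1-WT was 3.97 ± 0.20 (SE), or 15.7-fold, in E63R and 5.2 ± 0.16 (SE), or 36.7-fold, in Y48E. Y48E was 2.34-fold above E63R (log2 difference 1.23 ± 0.15, SE). Without untreated E63R replicate 3, the difference from HDAC1-WT was 3.84 and that of Y48E from E63R was 1.36. In bulk RNA, more cells expressing the family and more RNA in each such cell cannot be told apart.

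After OHT the summed level was higher in both mutant lines and lower in HDAC1-WT cells. The E63R libraries had 293, 297 and 320 normalised CPM (303 ± 14.1, SD, n = 3) and the Y48E libraries 454, 481 and 448 (461 ± 17.4, SD, n = 3). The increase over the untreated cells of the same line was 3.29-fold in E63R (log2 difference 1.72 ± 0.14, SE) and 2.14-fold in Y48E (1.09 ± 0.08, SE), with no overlap between treated and untreated libraries. Without untreated E63R replicate 3 the E63R difference was 1.85. The HDAC1-WT libraries had 1.93, 1.81 and 2.83 normalised CPM (2.19 ± 0.555, SD, n = 3), from 20, 20 and 32 counts, all below the untreated libraries (log2 difference -1.45 ± 0.25, SE, or 2.74-fold lower). The log2 difference with OHT exceeded that in HDAC1-WT by 3.17 ± 0.29 (SE) in E63R and 2.55 ± 0.26 (SE) in Y48E, and the Y48E difference was below the E63R one by 0.62 on the log2 scale (SE 0.16). Among OHT-treated cells, the E63R level was 141-fold and the Y48E level 215-fold that of HDAC1-WT. The order of the 6 groups was therefore HDAC1-WT with OHT, HDAC1-WT, E63R, Y48E, E63R with OHT and Y48E with OHT, and no neighbours in it overlapped.

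**Figure D1:**
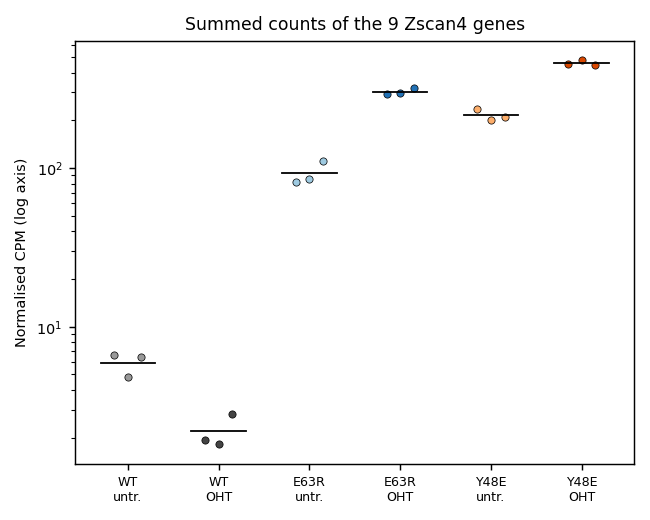
Summed normalised CPM of the 9 Zscan4 genes (log axis) in the 3 libraries (points) of each group, with the mean as a line. The untreated mutant libraries, between 81.9 and 237, sit above the HDAC1-WT libraries, between 1.81 and 6.60, and the OHT-treated mutant libraries are higher again.

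All 9 genes passed the filter on low counts among 18791 genes tested, through the mutant libraries in which they were high. They are described by their fold changes and by whether the libraries of a pair of groups overlapped. The share of all tested genes whose libraries lay apart in the same direction is given beside these counts, and nothing about the family is read from it, since the family was chosen on these levels. In untreated cells the libraries of 9 of 9 members were higher in E63R than in HDAC1-WT (17.1% of all genes), and in Y48E than in HDAC1-WT (20.5%). They were also higher in untreated Y48E than in untreated E63R for 9 of 9 (9.11% of all genes), by more than 2-fold for 8 members, all but Zscan4-ps1. Among OHT-treated cells, 9 of 9 were higher than in HDAC1-WT both in E63R (26.2% of all genes) and in Y48E (31.2%). Without untreated E63R replicate 3 the libraries of 9 of 9 members again lay apart in both comparisons of untreated E63R cells, and 9 were more than 2-fold higher in Y48E than in E63R.

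Fold changes of single members between the untreated lines rested on few HDAC1-WT counts, and differences between members were not tested. The best-counted members in HDAC1-WT cells were Zscan4a, with 0.744, 1.09 and 1.70 normalised CPM, Zscan4c, with 1.77, 0.362 and 1.20, and Zscan4d, with 1.12, 1.09 and 1.00. The log2 fold change of untreated E63R against HDAC1-WT was 4.11 ± 0.26 (SE) for Zscan4a, 3.70 ± 0.35 for Zscan4c and 3.62 ± 0.34 for Zscan4d. For Zscan4f, with 8, 7 and 2 counts in the HDAC1-WT libraries, it was 2.96 ± 0.37, and the median over members was 4.00. For Y48E these values were 5.12 ± 0.26, 4.91 ± 0.34, 4.85 ± 0.32 and 4.73 ± 0.33, close to each other beside their errors, with a median of 5.12. The medians over all tested genes were 0. Zscan4b and Zscan4-ps1 had no more than 3 counts in any untreated HDAC1-WT library, so no fold is given for them, though the medians over members include them.

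With OHT in E63R cells the treated libraries were above the untreated ones for 9 of 9 members (21.2% of all genes), and the fold change was above 2 for 7 of them. Zscan4d, a 2-cell stage transcript in the embryo, went from 11.8, 9.26 and 18.8 to 76.2, 73.5 and 84.9 normalised CPM. The log2 fold change was 2.56 ± 0.23 (SE), or 5.90-fold. Zscan4f went from 3.23, 4.86 and 4.69 to 22.4, 29.9 and 28.2 normalised CPM, the largest fold among the members (log2 fold change 2.66 ± 0.25, SE, or 6.33-fold). Zscan4c, the copy best known from ESCs, went from 11.4, 12.8 and 19.4 to 41.1, 40.8 and 39.5 (log2 fold change 1.48 ± 0.25, SE). Zscan4b, Zscan4e, Zscan4-ps2 and Zscan4-ps3 had log2 fold changes of 1.51, 1.98, 1.79 and 1.64. The 2 members under 2-fold were Zscan4a, at 0.81 ± 0.19 (SE), and Zscan4-ps1, at 0.77 ± 0.36 (SE). Without untreated replicate 3, 8 members were above 2-fold, and the log2 fold change was 2.88 for Zscan4d, 0.95 for Zscan4a and 1.02 for Zscan4-ps1.

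With OHT in Y48E cells the treated libraries were above the untreated ones for 6 of 9 members (31.9% of all genes) and below them for 2 (27.5%), and 5 members were more than 2-fold higher. Zscan4d went from 35.4, 27.8 and 30.6 to 155, 153 and 146 normalised CPM (log2 fold change 2.28 ± 0.22, SE, or 4.85-fold). Zscan4f went from 14.6, 11.8 and 17 to 46.4, 50.9 and 52.2 (1.78 ± 0.22, SE). Zscan4e, Zscan4-ps2 and Zscan4-ps3 had log2 fold changes of 1.21, 1.33 and 1.06, and Zscan4c had 0.78 ± 0.24 (SE). Zscan4b had 7.81, 9.45 and 7.75 normalised CPM before and 7.23, 9.52 and 12.7 after OHT, and these libraries overlapped (log2 fold change 0.24 ± 0.35, SE).

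Zscan4a and Zscan4-ps1 went the other way in Y48E cells. Zscan4a had 47.3, 40.9 and 34.7 normalised CPM in untreated and 19.7, 21.1 and 20.4 in treated Y48E libraries, where in E63R it had 17, 19.8 and 24.4 untreated and 33.3, 35.7 and 37.9 treated. Each treated Y48E library was below each untreated one, with a log2 fold change of -1 ± 0.19 (SE), which ran from -1.11 to -0.89 over the alternative settings. Zscan4-ps1 had 17.7, 15.0 and 15.7 normalised CPM in untreated and 9.84, 9.43 and 3.69 in treated Y48E libraries (log2 fold change -1.08 ± 0.37, SE). The difference of the OHT effects, Y48E minus E63R, was below 0 for 9 of 9 members and ranged from -1.85 for Zscan4-ps1 to -0.28 for Zscan4d. For Zscan4a it was -1.81 ± 0.27 (SE).

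**Figure D2:**
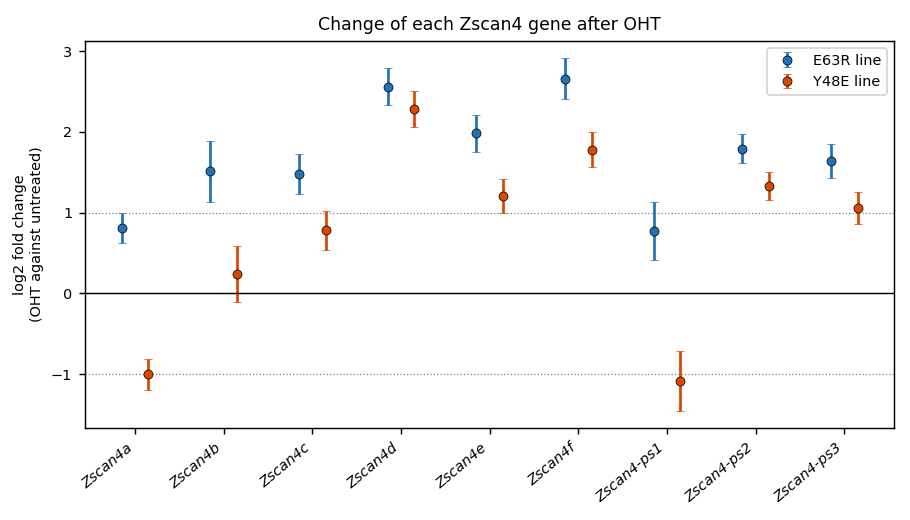
Log2 fold change of each Zscan4 gene with OHT against the untreated cells of the same line, with its standard error, in the E63R and Y48E lines, and dotted lines at -1 and 1. Zscan4d and Zscan4f are highest in both lines, and Zscan4a and Zscan4-ps1 lie above 0 in E63R and below 0 in Y48E.

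In the HDAC1-WT line the treated libraries were below the untreated ones for 3 of 9 members (9.64% of all genes), Zscan4-ps2, Zscan4e and Zscan4f, and overlapped them for the other 6. Zscan4-ps2 had 7, 5 and 6 counts in untreated and 0 in each treated library, Zscan4e had 8, 1 and 11 and then 0, 0 and 1, and Zscan4f had 8, 7 and 2 and then 2, 0 and 0. Zscan4a had 8, 12 and 17 counts and then 8, 8 and 3, and Zscan4d 12, 12 and 10 and then 0, 10 and 13. At these depths changes of single members in this line were hardly measurable.

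**Figure D3:**
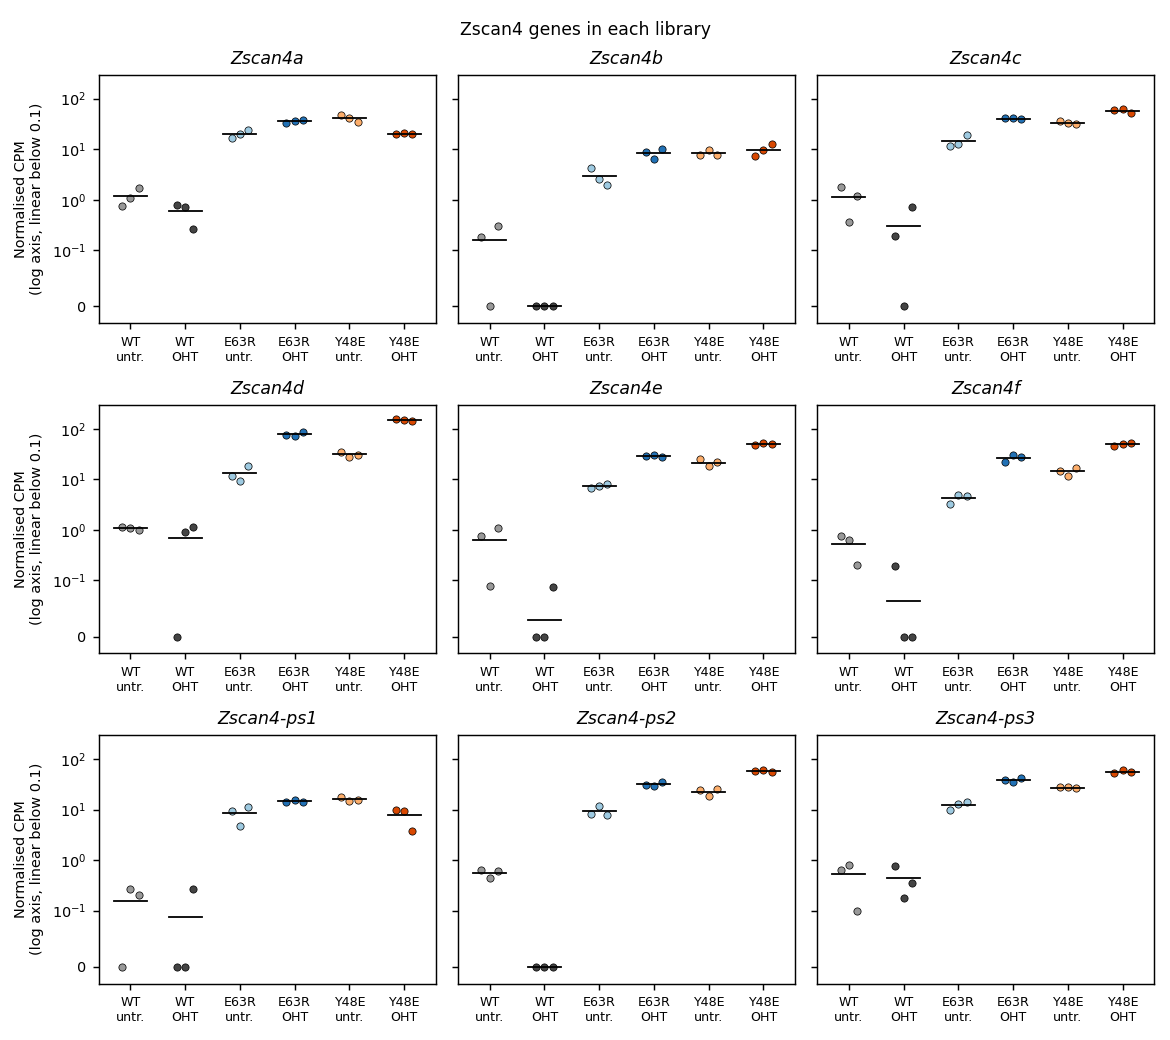
Normalised CPM of each Zscan4 gene in every library (points, with the mean as a line) by group, on an axis that is logarithmic above 0.1 and linear below it. HDAC1-WT libraries are below 2 for every gene, several at 0, and the mutant libraries are between 1.94 and 155.

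Because the members did not move alike, the make-up of the Zscan4 counts differed between treated and untreated mutant cells. Zscan4d made up 14% ± 3.09 (SD, n = 3) of the family's counts in untreated (16.9% in replicate 3, the highest) and 25.8% ± 0.953 in treated E63R cells, and 14.4% ± 0.585 and 32.9% ± 1.19 in Y48E cells. Zscan4a, the member with the largest share before OHT, went from 21.9% ± 1.12 to 11.7% ± 0.351 in E63R and from 18.9% ± 2.1 to 4.43% ± 0.117 in Y48E. Zscan4-ps1 went from 9.15% ± 3.21 to 4.83% ± 0.409 in E63R and from 7.47% ± 0.011 to 1.65% ± 0.723 in Y48E. Zscan4f went from 4.61% ± 0.912 to 8.84% ± 1.21 in E63R and from 6.71% ± 1.21 to 10.8% ± 0.745 in Y48E. The treated and untreated shares of these 4 genes did not overlap in either line. Zscan4c took between 11.6% and 17.5% in every mutant library.

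**Figure D4:**
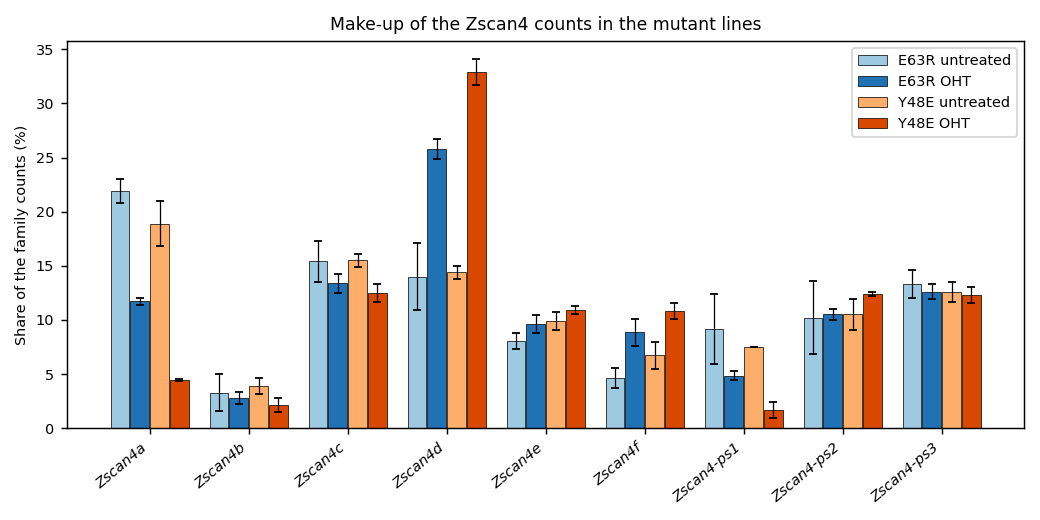
Share of the family's counts taken by each gene in the 4 mutant groups, as the mean of 3 libraries with SD. Zscan4d takes 14% before and 25.8% after OHT in E63R and 14.4% and 32.9% in Y48E, while Zscan4a and Zscan4-ps1 take smaller shares after OHT.

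Levels of different members were compared per kb of exon, since their annotated exons sum to between 1793 and 2279 bases. In untreated mutant cells Zscan4a was highest, at 8.94 ± 1.63 normalised CPM per kb in E63R and 18 ± 2.77 in Y48E (SD, n = 3), followed by Zscan4c, at 6.38 ± 1.9 and 14.7 ± 1.17, and Zscan4d, at 5.85 ± 2.16 and 13.8 ± 1.70. Each of these overlapped the next one. Zscan4b was lowest, at 1.61 ± 0.632 in E63R and 4.63 ± 0.535 in Y48E. After OHT, Zscan4d stood alone at the top, with 34.4 ± 2.63 in E63R and 66.7 ± 2.05 in Y48E. In treated E63R cells the next 6 members, Zscan4c, Zscan4-ps3, Zscan4e, Zscan4a, Zscan4-ps2 and Zscan4f, ranged from 17.8 to 13.7 and each overlapped its neighbour. In treated Y48E cells Zscan4e, Zscan4f, Zscan4c, Zscan4-ps2 and Zscan4-ps3 lay between 27.9 and 24.9, and Zscan4a, at 8.95 ± 0.319, Zscan4b, at 5.44 ± 1.52, and Zscan4-ps1, at 3.8 ± 1.71, were well below them. In HDAC1-WT cells all neighbours in the order overlapped. These levels were not corrected for the differing shares of unique sequence.

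Over the 18 libraries the log2 levels of the members followed each other, with pairwise Pearson r from 0.876 to 0.991. Since the libraries fall into 6 groups that differ widely in the family, these r mainly describe the group means. Among 16675 other genes with a mean of at least 1 CPM, the 10 whose levels were most like the summed family, at r of 0.980 to 0.987, were Gm16478, Gm21761, Gm8994, Tfdp1, Gm8332, Gab1, Gm6494, Gm12794, Gm2016 and Gm1995. Of these, Gm8994, Gm12794 and Gm2016 were on the list of 2-cell stage genes below, Tfdp1 encodes a partner of E2F factors and Gab1 a signalling adaptor. Within groups, after subtraction of group means, r ranged from -0.536 for Gab1 to 0.833 for Gm8332. Gm8332, annotated as a pseudogene by RefSeq, averaged 0.836 normalised CPM in untreated HDAC1-WT, 10.9 in E63R and 16.8 in Y48E cells, and 0.0883, 32.3 and 102 in the OHT-treated cells in the same order.

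Genes outside the family were tested. The gene lists below were drawn up with earlier results of these data known, so counts over a list are a description. A gene was called where the edgeR quasi-likelihood test gave an adjusted p under 0.01 and the log2 fold change was beyond 1, the limits used in the study. With OHT, 0.0373% of all tested genes were called higher and 0.0160% lower in HDAC1-WT, 4.74% and 1.18% in E63R, and 10.8% and 5.84% in Y48E cells. Against untreated HDAC1-WT cells, 3.32% were called higher and 4.33% lower in untreated E63R, and 2.62% and 2.95% in untreated Y48E cells.

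Several factors are reported to activate the Zscan4 programme, among them DUX, the paired DPPA2 and DPPA4 proteins, NELFA, TBX3 and GATA2. Of 6 such genes tested, 0 were called in E63R cells with OHT (edgeR, 2 higher and 0 lower at an unadjusted p under 0.05; DESeq2 called 0), and 1 was called in Y48E cells, Tbx3, which fell by 1.08 on the log2 scale (edgeR adjusted p = 6.98e-07). Against untreated HDAC1-WT cells, 2 of the 6 were called higher and 1 lower in untreated E63R, and 3 higher and 1 lower in untreated Y48E cells. The lower one was Tbx3, with means of 58.7 normalised CPM in E63R and 86.4 in Y48E against 182 in HDAC1-WT cells. Dppa2 was higher than in untreated HDAC1-WT cells by 1.51 in untreated E63R (adjusted p = 9.04e-06) and 1.21 in untreated Y48E cells (adjusted p = 0.000163). Dppa4 was higher by 1.45 (adjusted p = 5.5e-07) and 1.06 (adjusted p = 3.93e-05). In untreated E63R replicates 1 and 2 alone, Dppa2 was at 60.4 and 45.3 and Dppa4 at 81.9 and 62.9 normalised CPM, against at most 23.5 and 32.9 in untreated HDAC1-WT libraries. Duxf3, which encodes DUX and belongs to a repeat array, so that its counts are uncertain, had 0, 0 and 5 counts in untreated HDAC1-WT, 17, 18 and 18 in E63R and 9, 28 and 24 in Y48E libraries. Its difference did not pass the limit in E63R (adjusted p = 0.0187) or Y48E (adjusted p = 0.0153), and after OHT it had 22, 25 and 9 counts in E63R and 5, 10 and 8 in Y48E libraries. In Y48E cells its difference with OHT was not called either (adjusted p = 0.147). Gata2 was higher in untreated Y48E than in HDAC1-WT cells by 1.31 (adjusted p = 4.87e-05). Nelfa had a log2 fold change of 0.81 with OHT in Y48E cells (adjusted p = 1.86e-06), under the fold limit.

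**Figure D5:**
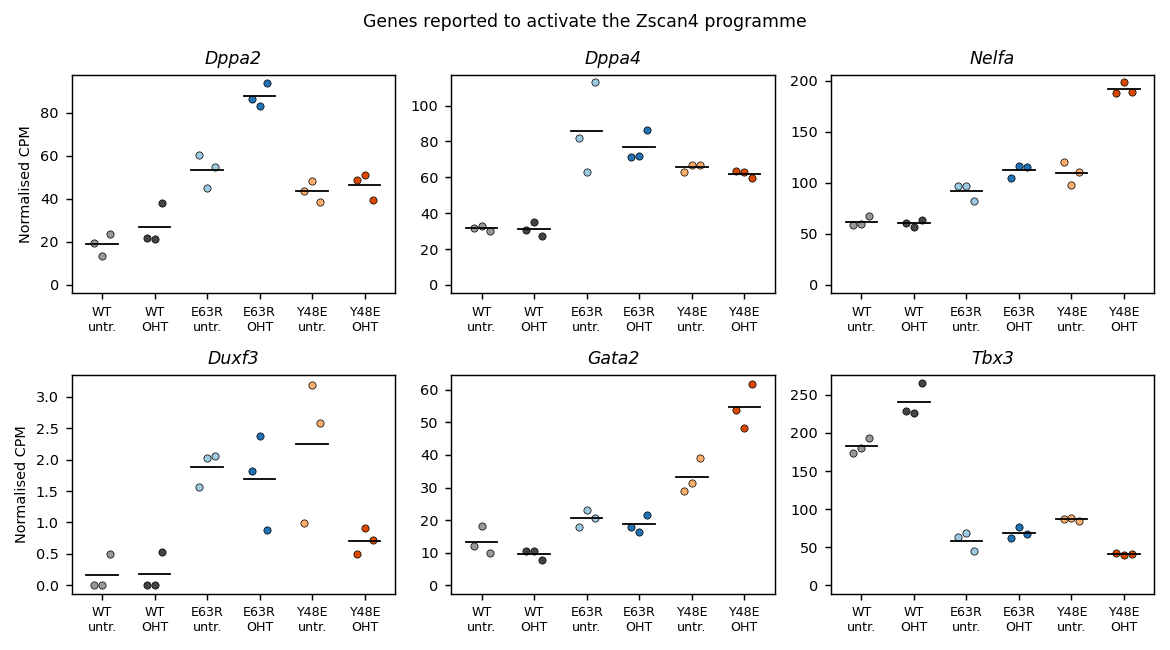
Normalised CPM of 6 genes reported to activate the Zscan4 programme in each library (points, with the mean as a line) by group, on linear axes. Dppa2, Dppa4 and Nelfa are higher in both untreated mutant lines than in HDAC1-WT cells, and Tbx3 is lower.

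Of 20 genes reported to repress Zscan4 or the 2-cell programme, including Trim28, Kdm1a, Setdb1, the Chaf1 genes, Smchd1 and Rif1, 0 were called in each of the 3 OHT comparisons, by edgeR or by DESeq2. At an unadjusted p under 0.05, edgeR gave 0 in HDAC1-WT, 5 lower in E63R and 10 lower in Y48E cells, and 0 higher in each. Without untreated E63R replicate 3 it gave 10 lower and 0 higher in E63R cells. Their median log2 fold change was -0.06, -0.15 and -0.21, where the medians over all genes were 0, 0.03 and 0.05. Some genes that were not called still lay lower with OHT without overlap of libraries, named here after their values were seen. In Y48E cells Uhrf1 averaged 431 and then 217 normalised CPM, and Mga 264 and then 155. Max averaged 89.3 and then 53.1 in E63R, and 83.2 and then 48.2 in Y48E cells. In the untreated lines 0 were called against HDAC1-WT by either tool, and at an unadjusted p under 0.05 edgeR gave 8 higher and 1 lower in E63R (14 and 2 without replicate 3) and 6 higher and 2 lower in Y48E cells. The medians there were 0.18 and 0.15.

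Other 2-cell stage genes were also higher in the mutant lines. Of 56 named, with earlier results of these data known, 39 were tested. With OHT 16 were called higher and 0 lower in E63R cells (4.74% and 1.18% of all tested genes). In Y48E 21 were called higher and 1 lower (10.8% and 5.84%), and in HDAC1-WT cells 0 higher and 1 lower (Gm12794). Median log2 fold changes of the 39 were 1.5, 1.87 and -0.27 in this order of lines. Untreated, 22 were higher and 1 lower in E63R than in HDAC1-WT cells (3.32% and 4.33% of all tested genes). In untreated Y48E cells 24 were higher and 1 lower (2.62% and 2.95%). Usp17le, which encodes a deubiquitinating enzyme, went from 5.18, 5.2 and 5.15 to 38.7, 36.0 and 30.3 normalised CPM in E63R (adjusted p = 1.73e-07) and from 18.4, 14.7 and 14.4 to 90.1, 86.3 and 90.1 in Y48E cells (adjusted p = 3.42e-08). Gm5662, an eIF1A-like gene, rose by 1.64 (adjusted p = 8.04e-07) and 2.49 (adjusted p = 2.94e-10) on the log2 scale. Tmem92, in contrast, fell in Y48E cells from 32.2, 26.6 and 30.2 to 3.61, 5.71 and 4.41 normalised CPM (adjusted p = 1.33e-08). Without untreated E63R replicate 3, 41 of the listed genes were tested, of which 22 were called higher in E63R cells with OHT, and 20 higher and 1 lower in untreated E63R than in HDAC1-WT cells.

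Telomere maintenance and meiotic recombination are the processes tied to Zscan4. Of 16 telomere genes, 0 were called with OHT in HDAC1-WT and E63R cells by edgeR or DESeq2 (edgeR, 2 and 6 at an unadjusted p under 0.05). In Y48E cells 2 were called, Dkc1, which binds telomerase RNA (log2 fold change -1.35, adjusted p = 2.67e-09), and Terc, the telomerase RNA (3.32, adjusted p = 0.00189). Terc had 8, 6 and 2 counts in untreated and 46, 78 and 71 in treated Y48E libraries. Of 11 genes listed under meiotic recombination, 1 was called with OHT in HDAC1-WT and in E63R and 3 in Y48E cells, all higher. At an unadjusted p under 0.05, edgeR gave 3 higher and 1 lower in HDAC1-WT cells. It gave 1 higher and 2 lower in E63R, and 3 higher and 4 lower in Y48E cells. Tex101, a germ cell gene that is not a recombination gene, was called in each line, HDAC1-WT included (edgeR log2 fold change 2.95, adjusted p = 0.00122). It was the only gene of the list called with OHT in HDAC1-WT and in E63R cells. Rec8 and Sycp1 were also called in Y48E cells. Untreated, 1 of the 11 was called higher (Tex101) and 2 lower (Hormad1 and Smc1b) in E63R, and 3 lower (Hormad1, Smc1b and Dmc1) in Y48E than in HDAC1-WT cells, genes that were named after their values were seen. Without untreated E63R replicate 3 the counts of genes of this list called in E63R cells were the same in both comparisons.

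Markers of the cell type and of other lineages also differed between the groups, and their part in the family's levels was not tested. All 10 pluripotency markers were detected in every group. Their summed level was 7060 to 7340 normalised CPM in untreated and 7340 to 7680 in treated HDAC1-WT libraries. It was 4960, 4600 and 7330 in untreated E63R libraries, of which replicate 3 was alone in the range of HDAC1-WT, and 3820 to 4110 in treated ones. It was 5410 to 5540 in untreated and 2380 to 2510 in treated Y48E libraries, where 7 of 10 were called lower. The sum of 8 trophoblast markers was lower in both untreated mutant lines than in HDAC1-WT, and higher in both after OHT. It was 284 to 309 in untreated and 324 to 332 in treated HDAC1-WT libraries, which did not overlap. In E63R it was 172, 189 and 209 untreated and 471 to 509 treated. In Y48E it was 165 to 178 untreated and 1250 to 1340 treated. Most of the difference with OHT in Y48E came from 2 keratins, which many epithelial cells express, Krt8 with means of 56.4 and then 742 and Krt18 with 41.8 and then 449. The sum of the other 6 was 62.9 to 75.7 and then 90.9 to 99.3 in Y48E libraries. It was 70, 79.1 and 53.6 and then 149 to 156 in E63R, and 199 to 215 and then 213 to 246 in HDAC1-WT libraries. With OHT, 4 of 8 were called higher in E63R and 5 in Y48E cells, Hand1 and Gata3 in both, whereas Tfap2c averaged 59.5 and then 54.1 in Y48E and Cdx2 averaged under 2 in every group. The sum of 7 primitive endoderm markers was 41.1 to 43.6 in untreated and 36 to 42.2 in treated HDAC1-WT libraries. It was 17.2, 20.8 and 12.5 in untreated and 22.3 to 27.2 in treated E63R libraries. In Y48E it was 18 to 25.7 untreated and 46.3 to 51.9 treated. Most of this difference in Y48E came from Dab2, with means of 8.21 and then 30.3. Sox17 averaged 1.7 and then 5.7 there, Sox7 1.41 and then 2.12, and Pdgfra 1.45 and then 3.3. Gata4 averaged 7.09 and then 5.48 and Gata6 1.59 and then 1.55, against 21.5 and 9.59 in untreated HDAC1-WT cells. Of 7 fibroblast markers, up to 4 were at 0 throughout a group. The sum of the 7 was 23.4 to 25.2 in untreated and 35.9 to 41.9 in treated HDAC1-WT libraries. In E63R it was 16.1, 18.9 and 12.9 untreated and 48.6 to 56.5 treated. In Y48E it was 23 to 27.2 untreated and 81.7 to 94.3 treated. Most of the sum was Thy1 and Col1a1. Thy1 averaged 16.6 and then 30.7 with OHT in HDAC1-WT, 11.1 and 32.4 in E63R, and 19.4 and 51.8 in Y48E. Col1a1 averaged 6.76 and 7.23, 2.84 and 16, and 3.67 and 30.9 in the same order.

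Few other genes in and around the cluster could be followed. Of 101 genes annotated between the members or within 500 kb, 7 were among the tested genes, and levels of the others were not examined. With OHT in Y48E cells, Gm6909, between the members, and Gm17737 were called higher and Zik1, a zinc finger gene beside the cluster, lower (log2 fold change -1.01, adjusted p = 0.000423). Untreated, Gm45551 was called higher in both mutant lines than in HDAC1-WT and Gm18204 in Y48E, both between the members.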

How the data were processed

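The authors sequenced paired-end 150-base reads, and the submitters' processing notes name HISAT2 2.1.0, SAMtools 1.9, HTSeq and mm10. The annotation and the use of strand are not given in the sources used here. The deposited values are raw counts per gene symbol in each of 18 libraries. Entries naming no gene held 59.4% to 61.2% of each library, including 6.29% to 7.86% with more than 1 alignment, and were left out. Multi-aligned reads were thus not counted on any Zscan4 copy.

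Counts were filtered with filterByExpr by group, scaled by TMM and fitted in 1 edgeR (4.0.16, R 4.3.3) quasi-likelihood model over the 18 libraries, with Benjamini-Hochberg adjustment over 18791 genes. The procedure was tested on simulated data. Summed levels are the summed counts of the members as normalised CPM, given as mean and SD of 3 libraries. Their differences are differences of mean log2 normalised CPM between groups. The study states biological replicates. p-values set a difference between groups against the spread between libraries of a group. With 1 line per rescue they do not cover the spread between separately made lines.

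The members and gene lists were chosen with earlier results of these data known. Named were all members, list genes called with OHT without overlap and with at least 1 CPM in the higher group (a selection is shown), the 10 genes most like the family, and genes within 500 kb. Alternatives were DESeq2 1.42.0 and the settings listed in the closing section. Leaving out untreated E63R libraries in the comparison with untreated HDAC1-WT, and replicate 3 of them for list counts and members above 2-fold, was added after seeing the data. Sequences were taken from RefSeq promoters on GRCm38, and transcripts and positions from GENCODE M21, where all 9 members were matched.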

Additional observations from a re-analysis of the deposited data

Results flagged for a closer look

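Every library moved one way in one line and the opposite way in another for 5 members and for the summed family. The values are differences of mean normalised CPM, OHT minus untreated. The summed family differed by -3.75 in HDAC1-WT, 211 in E63R and 245 in Y48E cells. Zscan4-ps2 differed by -0.568 in HDAC1-WT, 22.7 in E63R and 34.6 in Y48E, Zscan4e by -0.616, 21.7 and 28.5, and Zscan4f by -0.462, 22.6 and 35.3. The HDAC1-WT libraries held 0 to 11 counts of each of these members. Zscan4a differed by 15.2 in E63R and -20.5 in Y48E, and Zscan4-ps1 by 6.06 and -8.50. No test of the differences between lines is given, since the levels were known when the family was chosen.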

How the results depend on the processing

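Replicate numbers did not pair the libraries, since deviations of same-numbered libraries correlated at -0.03 to 0.07. The number of members past both limits (adjusted p and fold) is given only to show how it moves with the settings, and is no test of the family. In the main fit 0, 7 and 6 members passed with OHT in HDAC1-WT, E63R and Y48E cells. The 7 in E63R were higher, and in Y48E 5 were higher and 1 lower. Of all tested genes, 4.74% passed as higher and 1.18% as lower in E63R, and 10.8% and 5.84% in Y48E cells. With the replicate block the members numbered 0, 6 and 6, and 0, 15 and 22 of the 2-cell stage genes were called against 1, 16 and 22. In HDAC1-WT cells the members past the limits were 2 with no filter on low counts, 1 at an adjusted p under 0.05, 1 with DESeq2 and 0 to 1 with a library left out (1, Zscan4e, without untreated replicate 2), and the 2-cell stage genes called were 0 with thinned counts, glmTreat or only the 6 libraries compared, and 0 to 1 with a library left out (1 only without untreated replicate 2). Against a 2-fold change by glmTreat, 4 members passed in E63R and 2 in Y48E cells, and 6 2-cell stage genes in E63R cells, where only the 6 libraries gave 9. The log2 difference of the summed family with OHT was 1.93 with plain CPM, 2.16 with protein-coding members only and 1.51 without Zscan4d in E63R cells, and 1.30, 1.62 and 0.74 in Y48E cells. In the untreated lines it was 3.63 (E63R) and 4.98 (Y48E) above HDAC1-WT with protein-coding members only. Fold changes of single members stayed within the replicate spread in 294 of the refits and moved beyond it in 22, with 0 called ones reversed. Depth limited the HDAC1-WT values, where members had 0 to 19 counts.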
